A study of Mus musculus with 4 samples.

Results

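A930036K24Rik, 6430562O15Rik, A930006I01Rik and Gm16262 are 4 mouse noncoding genes with no assigned function, well expressed in wild-type retina and at least 8-fold lower in the Q344X retina. They were taken by symbol from 52636 Ensembl genes, and all 4 were among the 16833 genes averaging 10 or more normalized counts across the 4 libraries. Retinal RNA of 3-week-old mice was sequenced in 2 libraries from Q344X mice and 2 from WT (wild-type) mice. Q344X is a mutation that causes a dominantly inherited retinitis pigmentosa, in which rods and then cones are lost. Neither the origin of the allele nor its copy number, nor the sex or litter of the mice, is in the labels. By the study's design text 3 replicates a group were begun and 2 animals a group were kept after low-quality RNA and outliers were dropped. The 4 genes were chosen on the WT and Q344X values themselves, so their levels are given as a description without a test. Other genes were tested with limma on log2(normalized count + 1), with p-values adjusted over all 16833 genes and a threshold of 0.05.

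Long noncoding RNAs are transcripts, often spliced and polyadenylated like messenger RNAs, that encode no known protein. Some are transcribed from the opposite strand of a coding gene (antisense), some start close to a coding gene's start and run away from it, and some lie between genes (intergenic, or lincRNA). Many are made in few cell types, and no function is given here for the 4 genes because none is established in the sources used.

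The annotation places the 4 genes on 3 chromosomes (GENCODE release M21, GRCm38, the assembly also called mm10). A930036K24Rik (ENSMUSG00000102375) lies at chr9:107680082-107681281 on the plus strand. It is a single exon of 1200 bases of the type TEC, a class of gene models still awaiting experimental support. 6430562O15Rik (ENSMUSG00000097828) is typed as a processed transcript and lies at chr13:99396924-99412876 on the minus strand, with 3 annotated transcripts and 5975 bases of exon in all. A930006I01Rik (ENSMUSG00000087278), a lincRNA, lies at chr2:103338601-103372764 on the minus strand and has 3 exons, together 2229 bases. Gm16262 (ENSMUSG00000089709), annotated as antisense, lies at chr9:94695704-94702319 on the minus strand and has 2 exons, together 1751 bases. Its annotated transcript is tagged as incomplete at the 5′ end.

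The first 90 bases of 1 annotated transcript of each gene follow, 5′ to 3′, since these names stand for no known product and the sequence is their identity.
A930036K24Rik-201: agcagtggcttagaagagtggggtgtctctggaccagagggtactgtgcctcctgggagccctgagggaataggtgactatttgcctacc
6430562O15Rik-202: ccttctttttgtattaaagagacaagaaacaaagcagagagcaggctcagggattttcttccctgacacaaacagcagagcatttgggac
A930006I01Rik-201: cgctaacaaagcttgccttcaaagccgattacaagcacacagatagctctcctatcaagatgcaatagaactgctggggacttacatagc
Gm16262-201: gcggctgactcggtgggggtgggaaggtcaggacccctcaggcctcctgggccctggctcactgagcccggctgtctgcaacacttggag

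The libraries were made from polyadenylated RNA, so the last 60 bases of the same transcripts are shown with the polyadenylation signals AATAAA and ATTAAA in capitals.
A930036K24Rik-201: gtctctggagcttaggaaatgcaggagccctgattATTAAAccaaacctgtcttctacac
6430562O15Rik-202: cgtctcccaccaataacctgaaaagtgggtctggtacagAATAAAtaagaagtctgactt
A930006I01Rik-201: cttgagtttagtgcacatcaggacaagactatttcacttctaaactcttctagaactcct
Gm16262-201: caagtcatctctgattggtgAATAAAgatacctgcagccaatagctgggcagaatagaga
A930036K24Rik ends 19 bases after ATTAAA, 6430562O15Rik-202 ends 15 bases after AATAAA and Gm16262 ends 34 bases after AATAAA. The end of A930006I01Rik holds neither word. One or both words occur in the last 60 bases of 39.5% of 18691 transcripts (of at least 200 bases) of annotated noncoding genes and of 51% of 58758 protein-coding transcripts, so they are common in both classes. Composition was 50.3% G and C in A930036K24Rik, 47.9% in 6430562O15Rik-202, 43.2% in A930006I01Rik and 48% in Gm16262, beside a median of 46.4% for noncoding transcripts. Their longest reading frames from an ATG held 87, 78, 97 and 107 codons in the same order, where the median was 61 codons for noncoding and 311 codons for protein-coding transcripts. The transcripts are 1200, 3997, 2229 and 1751 bases long, all above the noncoding median of 961 bases. Length was not matched, so nothing on coding is read from these frames.

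A promoter window (RefSeq, GRCm38.p6) matched 1 of the 4 genes, 6430562O15Rik, at chr13:99412777-99413076 on the minus strand, with 250 bases before and 50 after the RefSeq start. Capitals mark the 100 bases that belong to GENCODE transcript 6430562O15Rik-202, whose start lies 50 bases upstream of the RefSeq start.
6430562O15Rik promoter: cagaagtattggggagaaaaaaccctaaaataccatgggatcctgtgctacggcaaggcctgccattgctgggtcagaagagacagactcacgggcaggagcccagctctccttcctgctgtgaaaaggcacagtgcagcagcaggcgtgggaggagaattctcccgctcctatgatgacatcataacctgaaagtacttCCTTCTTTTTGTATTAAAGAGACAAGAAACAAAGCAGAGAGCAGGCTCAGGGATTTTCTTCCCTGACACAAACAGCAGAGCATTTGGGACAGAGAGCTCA
Both strands were searched for TATAAA (a core promoter element), TAATCC (bound by CRX-type homeodomain proteins of photoreceptors), TGCTGA (core of the NRL site of rods), TGACGTCA (cyclic AMP response element), GGGCGG (GC box), CACGTG (E-box) and the MEF2 motif. None of the 7 was found in these letters. Of 32851 promoter windows of the same length, 13.6% hold TATAAA, 7.06% TAATCC, 19.5% TGCTGA, 1.79% TGACGTCA, 35.7% GGGCGG, 7.15% CACGTG and 3.19% the MEF2 motif. The window has 4 CG pairs, below the median of 7, and 49.7% G and C, beside a median of 52.7%.

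In the Q344X retina the mean of Gm16262, 6430562O15Rik and A930036K24Rik was at 0.518% to 2.41% of that in WT, and A930006I01Rik was reduced to 12.1%. Gm16262 was at 3.96 and 1.92 normalized counts in the Q344X libraries, against 670 and 466 in the WT libraries. Back-calculated, the Q344X values are 4 and 2 reads, though the reads of replicate 1 did not pass a unit check. Taken as reads, the 6 together have an exact 95% Poisson interval of 2.20 to 13.1, which covers counting error only. Its mean was 2.94 ± 1.44 in Q344X and 568 ± 144 in WT (SD, n = 2 each), a log2 fold change of -7.20 ± 0.39 (SE). With the higher Q344X library set against the lower WT library, Q344X kept 0.849% of the WT level. This is not an upper bound, since the Q344X side rests on 4 reads.

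6430562O15Rik, the longest of the 4 in exon bases, was at 6.93 and 9.60 normalized counts in the Q344X libraries, against 982 and 738 in the WT libraries. The groups were far apart, and the libraries of a group differed by less than 1 log2 unit. The mean was 8.26 ± 1.89 in Q344X and 860 ± 172 in WT (SD, n = 2 each), with a log2 fold change of -6.54 ± 0.29 (SE). A930036K24Rik was at 30.7 and 25.9 normalized counts in Q344X, against 1269 and 1079 in WT. Its mean of 28.3 ± 3.38 in Q344X and 1174 ± 134 in WT (SD, n = 2 each) gave a log2 fold change of -5.33 ± 0.22 (SE).

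A930006I01Rik kept the largest share of its WT level among the 4. It was at 162 and 150 normalized counts in the Q344X libraries, against 1308 and 1278 in the WT libraries, with the smallest difference between WT libraries of the 4 genes. Its mean was 156 ± 8.93 in Q344X and 1293 ± 21.2 in WT (SD, n = 2 each), a log2 fold change of -3.04 ± 0.18 (SE). That is just inside the 8-fold limit of 3 log2 units, and it was -2.98 under quantile normalization and -2.99 without Q344X replicate 2, just outside. In none of the 4 genes did the groups overlap, which also held, in either direction, for 63.1% of all tested genes (31.7% lower in Q344X). A fold of at least 8 lower was met by 1.21% of all tested genes, 5.95% of noncoding and 0.489% of protein-coding ones. Since the choice used these values, nothing is read from either share.

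**Figure D1:**
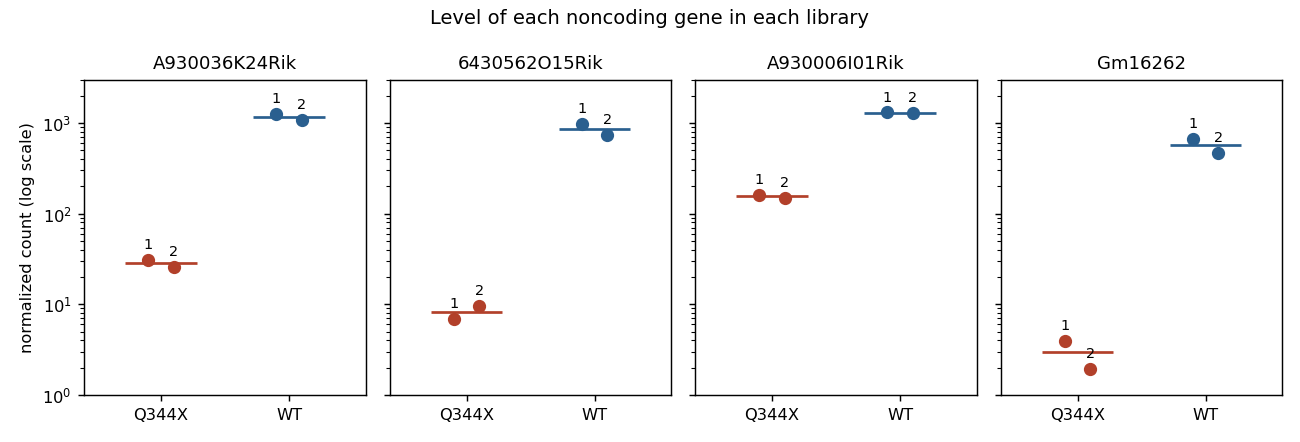
Normalized counts on a log axis of the 4 noncoding genes in each library, Q344X left and WT right, with points numbered by replicate and a line at the group mean. The Q344X points of Gm16262 lie at 3.96 and 1.92 and those of A930006I01Rik at 162 and 150, below every WT point of the same gene.

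Per kilobase of exon the order of the genes differed between groups. In Q344X, A930006I01Rik was highest, at 72.8 and 67.2 normalized counts per kb, followed by A930036K24Rik at 25.6 and 21.6. Gm16262, at 2.26 and 1.10 per kb, and 6430562O15Rik, with a mean of 1.38 per kb, overlapped at the bottom. In WT, A930036K24Rik was highest at 1057 and 899 per kb, then came A930006I01Rik at 587 and 574, Gm16262 at 383 and 266 and 6430562O15Rik at 164 and 124, with no overlap between neighbours in this order. Among the 1898 noncoding genes tested, A930036K24Rik ranked 16 in WT level per kb, A930006I01Rik 28, Gm16262 50 and 6430562O15Rik 169. The exon length is that of all annotated transcripts together, which lowers the per-kb value of a gene such as 6430562O15Rik if only its shorter transcripts are made.

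The spread between libraries was small beside the genotype difference, which was large by the choice of these genes. The log2 difference of replicate 1 minus replicate 2 within Q344X was 0.76 for Gm16262, -0.42 for 6430562O15Rik, 0.24 for A930036K24Rik and 0.12 for A930006I01Rik. In WT the same difference was 0.52 for Gm16262, 0.41 for 6430562O15Rik, 0.23 for A930036K24Rik and 0.03 for A930006I01Rik, so replicate 1 was the higher in all 4 genes. Over 13327 genes with a mean of at least 50 the median absolute difference between replicates was 0.321 in Q344X and 0.215 in WT. Leaving out each library in turn gave -7.58 to -6.82 for Gm16262, -6.75 to -6.33 for 6430562O15Rik, -5.44 to -5.21 for A930036K24Rik and -3.10 to -2.99 for A930006I01Rik.

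These 4 genes are part of a larger set. A WT mean of at least 200 was reached by 199 tested noncoding genes without an assigned name (symbols such as Gm numbers, Rik names or clone names). Of these, 29 were 8-fold or more lower in Q344X (14.6%, beside 1.21% of all tested genes). In the other direction, 0 were 8-fold or more higher (0.327% of all tested genes). The minimum is set on WT, where such genes are high, so it favours falls and leaves little room for rises of this size. Over all 1746 tested noncoding genes without an assigned name, whatever their WT mean, 108 were 8-fold or more lower and 18 were 8-fold or more higher. The 25 of the 29 that are not among the 4 include 8 with a WT mean at least as high as that of Gm16262, the lowest of the 4, so the 4 genes are a selection and not all that meet the limit. These 8 are Gm19667, Gm20139, Gm47543, A930030B08Rik, A930003O13Rik, Gm17231, A330023F24Rik and 5930430L01Rik, with WT means of 629 to 3447 and log2 fold changes of -5.65 to -3.13. Just inside the limit were A930007I19Rik, at 33.7 and 17.3 in Q344X against 232 and 173 in WT, and 4930405A21Rik (-3.01), next to A930006I01Rik (-3.04). Just outside were BC055402, at 50.5 and 43.2 in Q344X against 410 and 331 in WT (-2.95), and Gm20045, at 44.6 and 42.2 in Q344X against 482 and 242 in WT (-2.95).

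Noncoding genes as a class were more often lower than higher. Of 1898 tested, 331 (17.4%) were lower in Q344X and 88 (4.64%) were higher at an adjusted p under 0.05 (limma), while 9.1% of all tested genes were lower and 5.46% higher. Among 14309 protein-coding genes 8.01% were lower and 5.64% higher. The median log2 fold change was -0.27 for noncoding, 0.04 for protein-coding and 0.02 for all tested genes. The class includes the 4 genes, and noncoding genes had a median WT mean of 35.4 normalized counts, against 544 for protein-coding genes, so the classes differ in depth. The count of lower noncoding genes was 543 without Q344X replicate 1 and 203 without WT replicate 1, and 159 were higher without Q344X replicate 1.

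**Figure D2:**
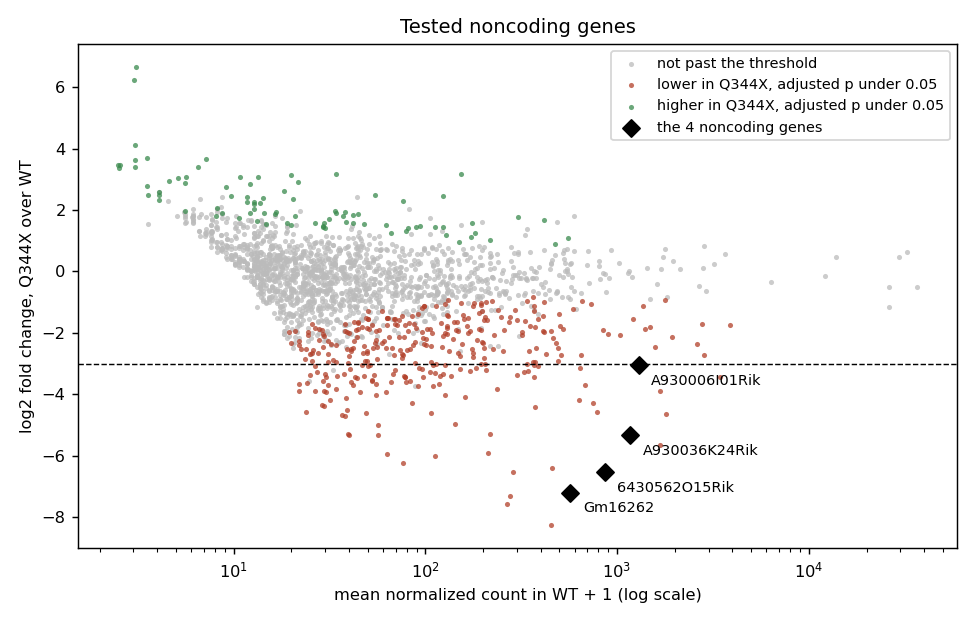
Log2 fold change of Q344X over WT against the mean normalized count in WT + 1 (log axis) for 1898 tested noncoding genes, coloured by the limma call, with the 4 genes as black diamonds and a dashed line at -3. The diamonds lie at -7.20 to -3.04, all below the dashed line.

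Of 30 long noncoding RNAs that carry names, listed from general knowledge, 27 were tested, 2 were higher in Q344X, 2 were lower and 23 did not pass (limma, median log2 fold change 0.01). Dlx6os1 was below the filter, and 2 names, Oip5os1 and 2900055J20Rik, had no match in the table. Vax2os, transcribed opposite the retinal homeobox gene Vax2, was at 1048 and 1291 normalized counts in Q344X, against 3859 and 3948 in WT, and fell (-1.75 ± 0.19, SE, adjusted p = 0.00786, limma). Neat1, the RNA scaffold of nuclear paraspeckles, was at 292 and 159 in Q344X, against 1063 and 620 in WT, and fell (-1.91 ± 0.38, adjusted p = 0.0303, limma). Mir9-3hg, a host transcript of a miR-9 hairpin, was at 84.2 and 89.3 in Q344X, against 31.2 and 26.1 in WT, and rose (1.57 ± 0.28, adjusted p = 0.0237, limma). Snhg1, a small nucleolar RNA host, was at 894 and 859 in Q344X, against 468 and 476 in WT, and rose (0.89 ± 0.17, adjusted p = 0.028, limma). Malat1, an abundant nuclear RNA (-0.49 ± 0.23, adjusted p = 0.192, limma), and Mir124a-1hg, a host of the neuronal miR-124 (adjusted p = 0.0604, limma), did not pass. The calls numbered 12 without Q344X replicate 1 and 8 without Q344X replicate 2. Snhg1 lost its call when WT replicate 1 was left out (adjusted p = 0.2, limma) or WT replicate 2 (0.156), as Mir9-3hg did without WT replicate 2 (0.0734), and Vax2os was the only 1 of the 4 to pass with no filter on low counts.

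The neighbours of the 4 genes were taken by position, so their values could be tested. Of 59 tested genes within 500 kb of any of the 4, 10 were lower in Q344X, 0 were higher and 49 did not pass (limma), where 9.1% of all tested genes were lower and 5.46% higher. The median log2 fold change was -0.28, with -4.38 to 1.29 as the range. Of the 10, 7 lay near A930036K24Rik, 2 near 6430562O15Rik, 1 near Gm16262 and 0 near A930006I01Rik. Their number was 16 without Q344X replicate 1, 4 without WT replicate 1 and 4 without WT replicate 2. Neighbours at 1 locus share their surroundings and are not independent of each other.

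A930036K24Rik and Gnat1 lie head to head. Gnat1 encodes the alpha subunit of rod transducin, the G protein that carries the light signal from the visual pigment to the phosphodiesterase. Its start is 370 bases from that of A930036K24Rik, with 369 bases between the gene models, and they run in opposite directions without shared exons. Gnat1 was at 39731 and 37666 normalized counts in the Q344X libraries, against 179576 and 204223 in the WT libraries, and fell (log2 fold change -2.31 ± 0.20, SE, adjusted p = 0.00532, limma). Gnat1 thus stood at 20.2% of its WT mean and A930036K24Rik, which was chosen for its fall, at 2.41%. On the other side, Sema3f, a secreted semaphorin that guides axons, ends 218 bases beyond A930036K24Rik on the opposite strand. Sema3f was at 1643 and 2226 in Q344X, against 1870 and 2603 in WT, and did not pass (-0.21 ± 0.25, adjusted p = 0.591, limma).

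Slc38a3, a glutamine transporter on the far side of Gnat1, was at 5844 and 4652 normalized counts in Q344X, against 10333 and 9952 in WT, and fell (-0.96 ± 0.19, adjusted p = 0.03, limma). That call was lost with no filter on low counts (0.0798) and when WT replicate 1 (0.164) or WT replicate 2 (0.116) was left out. The other 5 lower genes within 500 kb were Gm9917, Mon1a, Uba7, Rnf123 and Bsn, with log2 fold changes between -1.45 and -0.92, the last encoding bassoon, a scaffold of the photoreceptor ribbon synapse. The 36 tested genes at this locus had a median log2 fold change of -0.32.

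6430562O15Rik lies inside the gene body of Mrps27, which encodes a protein of the mitochondrial ribosome, on its opposite strand. The exons of both share 506 bases, or 8.47% of the exon bases of 6430562O15Rik, and reads there could be told apart only by strand. The library kit keeps strand, and whether the counting used strand is not stated in the sources used here. That setting also matters for Gm16262 and A930036K24Rik, which lie within or beside coding genes on the opposite strand. Mrps27 was at 472 and 520 normalized counts in Q344X, against 429 and 471 in WT, and did not pass (0.14 ± 0.18, adjusted p = 0.62, limma). Map1b, a neuronal microtubule protein gene, ends 8569 bases upstream of 6430562O15Rik on the same strand. Map1b was at 15060 and 9627 in Q344X, against 21386 and 18222 in WT, and did not pass (-0.71 ± 0.26, adjusted p = 0.119, limma), though it did without Q344X replicate 1 (-1.04, adjusted p = 0.00414).

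The nearest tested coding gene on the other side, Ptcd2 (0.04 ± 0.17, adjusted p = 0.884, limma), a factor of mitochondrial RNA maturation, did not pass either. The 2 lower genes within 500 kb of 6430562O15Rik were both noncoding. Gm26559, which runs away from the start of Map1b, was at 47.5 and 43.2 in Q344X, against 157 and 133 in WT (-1.65 ± 0.25, adjusted p = 0.0157, limma). Its adjusted p was 0.0669 when WT replicate 1 was left out and 0.0544 with no filter on low counts. A930014D07Rik was at 37.6 and 37.4 in Q344X, against 231 and 102 in WT (-2.01 ± 0.42, adjusted p = 0.0323, limma).

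Gm16262 lies inside an intron of Slc9a9, on the opposite strand, with 2 exon blocks of that gene before it, 17 after it and no shared exon base. Slc9a9 encodes a sodium-proton exchanger of recycling endosomes. Slc9a9 was at 222 and 144 normalized counts in Q344X, against 112 and 95.3 in WT, so its groups did not overlap, and it was higher in the Q344X libraries while Gm16262 was lower. The difference did not pass (0.78 ± 0.29, adjusted p = 0.115, limma), and passed only without Q344X replicate 2 (1.09, adjusted p = 0.0231) among the alternatives run. Gm29395, a lincRNA that starts just upstream of Slc9a9 and runs away from it, was at 0.99 and 0 in Q344X, against 33.3 and 24.1 in WT (adjusted p = 0.0147, limma). By back-calculation that is 1 read against 56, where the reads of Q344X replicate 1 and WT replicate 2 did not pass a unit check. The ratio of WT to Q344X reads was 56, with an exact 95% interval of 9.65 to 2251. That interval covers counting error only and not the spread between libraries. The fitted log2 fold change of Gm29395 depended on the pseudocount, at -4.38 with 1, -5.06 with 0.5 and -2.61 with 5. The nearest tested coding gene beyond it, 1190002N15Rik, had -0.15 ± 0.19 and did not pass.

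A930006I01Rik had no close coding neighbour. The nearest tested coding genes were Ehf, an epithelial ETS transcription factor 35322 bases away, and Cat, which encodes catalase, 81084 bases away. Ehf was at 27.7 and 21.1 normalized counts in Q344X, against 49.9 and 35.1 in WT, and did not pass (-0.77 ± 0.36, adjusted p = 0.186, limma). Cat was at 660 and 531 in Q344X, against 598 and 575.5 in WT (0.01 ± 0.20, adjusted p = 0.968, limma). None of the 8 tested genes within 500 kb of A930006I01Rik passed, and their range was -0.77 to 0.43 (14.6% of all tested genes passed in either direction). Gm37220, a gene model within an intron of A930006I01Rik, and BC016548, the next annotated gene, were below the filter. BC016548 was at 0 in both Q344X libraries and at 3.12 and 7.02 in the WT libraries.

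**Figure D3:**
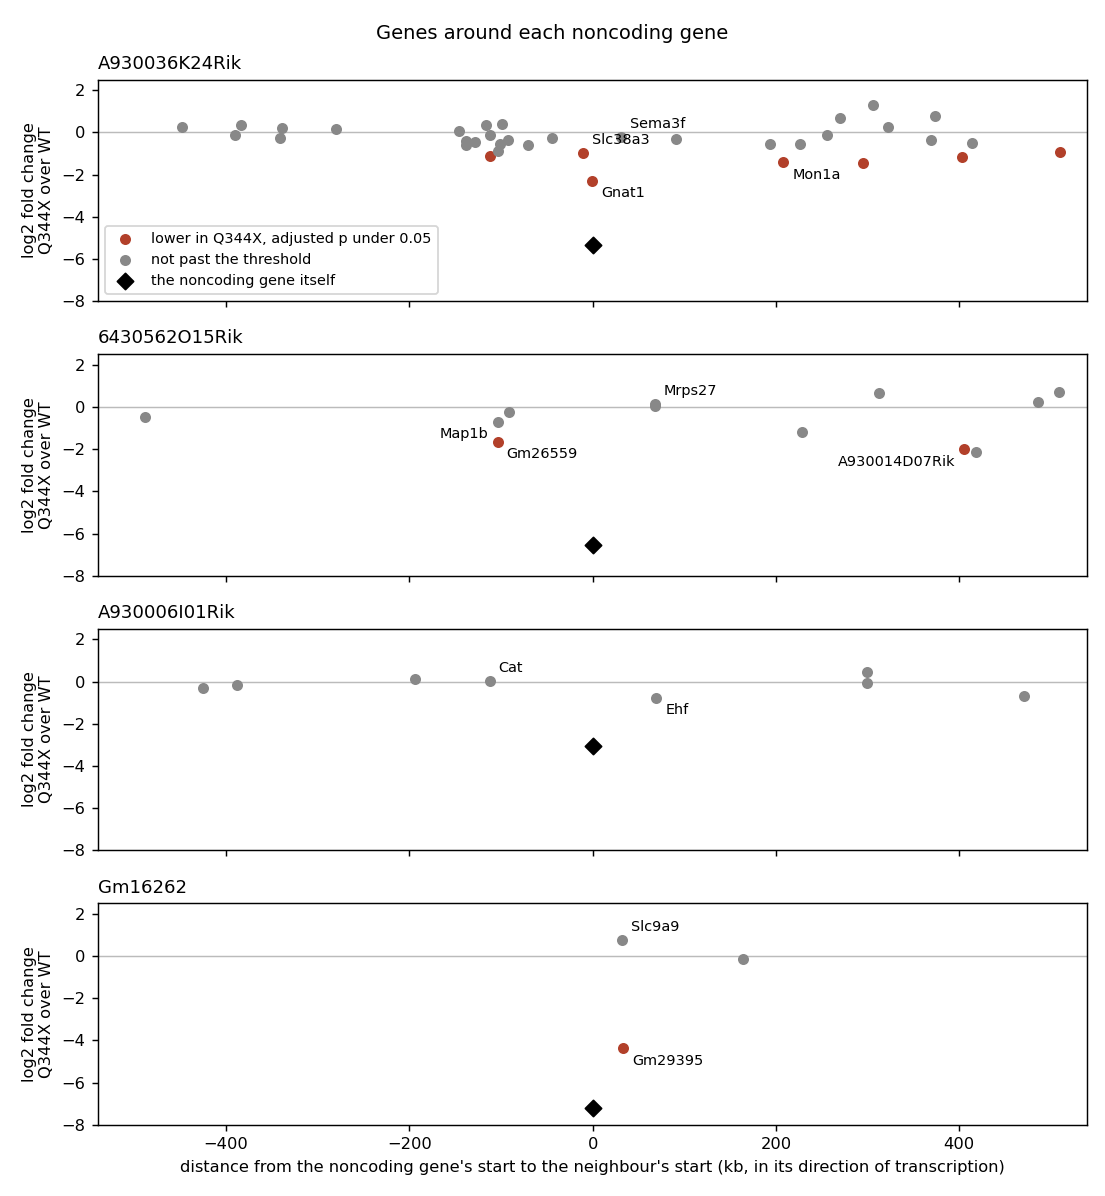
Log2 fold change of Q344X over WT for each tested gene within 500 kb of each noncoding gene, against the distance in kb between their starts, with negative distances upstream of the noncoding gene. Red points passed the limma test (all lower in Q344X), grey points did not, and the black diamond is the noncoding gene. It lies below every neighbour in all 4 panels, a place largely set by the choice of these genes for a large fall.

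The genes most like each of the 4 over the 4 libraries were found by the distance between centred log2 values, among 13323 other genes with a mean of at least 50. These distances use the same 4 values that chose the 4 genes and are a description. For A930036K24Rik the nearest were Slc26a4 (distance 0.414), which encodes the anion exchanger pendrin, Sh2d1a (0.547) and Ahrr (0.690), the aryl hydrocarbon receptor repressor. For 6430562O15Rik they were the antisense gene Ube4bos1 (0.422) and A930005N03Rik (0.644). A930006I01Rik was closest to A230056P14Rik (0.0817), Ccdc24 (0.0990), 5930430L01Rik (0.159) and Cacna1s (0.164), a calcium channel subunit known from muscle. Gm16262 was closest to Gm16055 (0.444) and Gm10097 (0.713). Between the 4 genes themselves the distance was smallest for 6430562O15Rik and Gm16262 (1.07) and largest for A930006I01Rik and Gm16262 (4.20).

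Back-calculation from the normalized values put 18452679 to 19706573 reads in genes per library, with 1 read worth 0.960 to 1.04 normalized counts. Markers of every retinal cell type listed were present in all 4 libraries. Summed lens markers were at 118445 and 4099 normalized counts in Q344X, against 132976 and 147750 in WT, so Q344X replicate 2 stood apart there, and blood markers were at 114 and 242 in Q344X, against 416 and 455 in WT. Without Q344X replicate 2 the log2 fold changes were -6.82 for Gm16262, -6.75 for 6430562O15Rik, -5.21 for A930036K24Rik and -2.99 for A930006I01Rik.

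Of the photoreceptor markers, those of cones were mostly lower in Q344X, while among those of rods Gnat1 alone passed the test. The sum of 10 rod and shared photoreceptor markers was 64.1% and 74.2% of the WT mean in the Q344X libraries, against 93.6% and 106% in the WT libraries, with 1 of the 10, Gnat1, lower past the threshold and 0 higher (limma). The median log2 fold change of the 10 was -0.06. Without Gnat1, a sum chosen after seeing the data, the other 9 were at 83.3% and 98.3% of the WT mean in Q344X, against 93.6% and 106% in WT, so the groups overlapped. Pdc, which encodes the transducin-binding phosducin (0.57 ± 0.23, adjusted p = 0.147, limma), and Nr2e3, a nuclear receptor of rods (0.51 ± 0.21, adjusted p = 0.155, limma), had positive values that did not pass. Pde6b (-0.75 ± 0.20, adjusted p = 0.0587, limma) and Prph2 (-0.66 ± 0.22, adjusted p = 0.093, limma) had negative values that did not pass. Nrl was at -0.43 ± 0.28 (adjusted p = 0.326, limma), and Sag, Cnga1, Crx and Rom1 lay between -0.08 and -0.02. The sum of 5 cone markers was 40.3% and 40.9% in Q344X, against 103% and 96.6% in WT, and 4 of the 5 were lower. Sag, which encodes rod arrestin, was at 121577 and 133700 normalized counts in Q344X, against 132024 and 130961 in WT. Each of the 4 noncoding genes, chosen for a large fall, stood at 12.6% of its WT mean or below in both Q344X libraries. In such bulk RNA fewer cells of a type and less RNA per cell cannot be told apart, which cells make these 4 RNAs is not shown by the data, and the part of photoreceptor RNA in their levels was not tested.

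**Figure D4:**
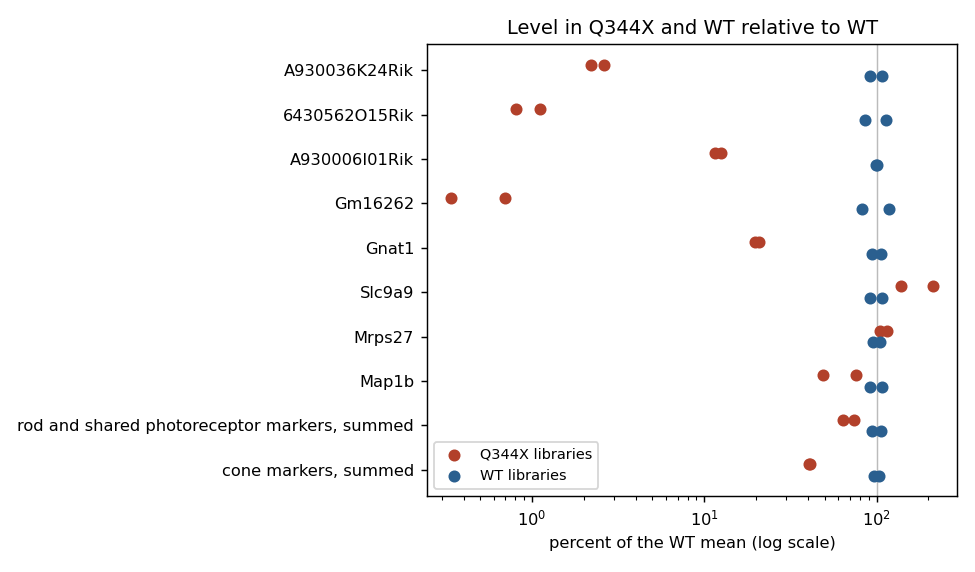
Level of the 4 noncoding genes, 4 neighbouring coding genes and 2 summed marker lists in each Q344X library (red) and each WT library (blue), as a percent of the WT mean on a log axis. The Q344X points of the 4 noncoding genes lie at 0.338% to 12.6%, below those of Gnat1 at 20.7% and 19.6% and of the summed rod markers, Gnat1 included, at 64.1% and 74.2%. The 4 genes were chosen for large falls, so their place below these was largely set by the choice.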

How the data were processed

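Retinal RNA of 4 libraries was analysed (2 Q344X, 2 WT, numbered in accession order). The deposited values are a signal per gene, gene counts that the authors divided by a size factor for each library, judged from the values themselves, which are whole multiples of 1 step per column (100% of values above 0 within 0.1 of a whole number). Per the submitters' processing notes, the tools were DESeq2 1.16.1, featureCounts, STAR, Trim Galore 0.4.4 and FastQC, and the build was mm10; their roles, the annotation and the strand setting are not stated there. Per the labels' protocols, poly-A selected RNA went into directional NEBNext libraries read on a HiSeq instrument. The extraction protocol counts 3 animals for Q344X and 2 for WT, unlike the design text.

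Promoter windows of chromosome 18 were not used. Symbols, positions and exons are those of GENCODE M21 (52403 of 52636 genes matched). In 2 columns (Q344X replicate 1 and WT replicate 2), where 1 read is worth close to 1, the recovered reads did not pass a unit check. No count model was therefore fitted. Genes with a mean of at least 10 were tested with limma 3.58.1 in R 4.3.3: two-sided moderated tests of genotype on log2(value + 1), with variances squeezed towards a trend on mean level (3.90 prior beside 2 residual degrees of freedom) and Benjamini-Hochberg adjusted p-values. This scale understates changes of low genes. The test was checked on simulated counts with the same spread setting for all genes and both groups. The real libraries differ in spread, so that check does not show how well the calls hold here. With 2 libraries a group, permutation could reach 0.333 at lowest, and the limma p-values depend on variance borrowed across genes. Noncoding genes are the annotated types lincRNA, antisense, processed transcript, sense intronic, sense overlapping, bidirectional promoter, 3-prime overlapping, macro lncRNA and TEC. Named genes are the 4 genes, overlapping and nearest genes, the nearest profiles, unnamed noncoding genes around the 8-fold limit and up to 6 named noncoding RNAs. A further few were named after their values were seen. The 4 genes and the lists were chosen with earlier results of these data known. The settings varied were the pseudocount (0.5 and 5), the minimum mean (none and 50), 75th percentile scaling, quantile normalization and leaving out each library in turn.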

Additional observations from a re-analysis of the deposited data

How the results depend on the processing

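The 4 noncoding genes kept their direction under all 10 alternatives. They were chosen for large falls in these same libraries, so this is a description and no sign of robustness. With a pseudocount of 5 the log2 fold changes were -5.14 for A930036K24Rik, -6.02 for 6430562O15Rik and -6.16 for Gm16262, closer to 0 because a larger pseudocount weighs more on low counts. With no filter on low counts 153 genes were higher in Q344X and 383 lower, among noncoding genes 19 and 108. In that setting 3 neighbours and 1 named noncoding RNA were past the threshold. More genes entered the adjustment there, and the variance trend was also fitted anew with the low genes included. The share of each in the lost calls was not tested. With a minimum mean of 50, 42 noncoding genes were higher and 172 lower, where fewer genes were tested. Leaving out 1 library gave 388 to 2353 higher and 666 to 2973 lower genes (919 and 1531 with all 4), 65 to 159 and 203 to 543 for noncoding genes, 4 to 16 neighbours and 4 to 12 named noncoding RNAs, and the cause was not tested. In those fits the remaining single library is assumed to vary like the pair of the other group. The pseudocounts of 0.5 and 5, the 75th percentile scaling and quantile normalization left each count within 1.5 times its value. Back-calculated counts of 2 to 10 reads limit the Q344X levels of Gm16262 and 6430562O15Rik. No paired analysis was possible because the labels give no replicate numbers.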
